A study of Mus musculus with 8 samples.

Results

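Hox genes encode homeodomain transcription factors that give tissues their position along the body axis. The family was taken as every gene whose symbol in the array annotation is Hox, a cluster letter from a to d and a number. By that choice it held 33 of the 18193 genes with a probe set. According to the labels, RNA came from the posterior portion of the palates of BALB/c pups, taken on postnatal day 1. Their mothers carried an osmotic minipump, a device implanted under the skin that releases its content steadily, from pregnancy on. The pumps released either sterile physiological saline or a daily nicotine dose of 1.5, 3.0 or 4.5 mg/kg. All 4 groups thus shared the pump and its surgery, and each had 2 Affymetrix arrays, which the labels call biological replicates. No genotype, transgene or other agent is named in the labels. How many pups and litters each array stood for is not clear from the labels, and the p-values therefore cover only how much these samples differ.

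In mouse, Hox genes lie in 4 clusters, and genes at the same place in different clusters form paralogue groups, numbered from the 3′ end of each cluster. Low-numbered groups are active from the hindbrain and neck backwards, and the high-numbered ones only in the trunk, tail, limbs and the organs near them. The neural crest cells that build the front of the face and the palatal shelves are known for lacking Hox expression, and Hoxa2 is a known exception in the mouse palate. Hox proteins bind DNA with partners of the Pbx, Meis and Prep families. Retinoic acid and Cdx proteins help to switch the clusters on, while Polycomb and Trithorax proteins keep them silent or active.

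The 33 members were read along this order. Groups 1 to 3 had 7 members, groups 4 to 8 had 12, and groups 9 to 13 had 14. Cluster a, on chromosome 6, gave 9 members, cluster b on chromosome 11 also 9, cluster c on chromosome 15 gave 7 and cluster d on chromosome 2 gave 8. Each member was represented by the probe set with its highest mean level. A level is log2(intensity + 16) after the 8 arrays were brought to 1 common distribution, so a probe set with no signal stands near 4. Levels compare arrays for 1 gene, never 1 gene with another. Of the 33 members, 23 passed a level filter of 4.94, the 40th percentile of all probe sets, and were tested with 13586 genes in all. They were 5 members of groups 1 to 3, 10 of groups 4 to 8 and 8 of groups 9 to 13. The filter used the mean over all arrays, so a gene could pass through 1 group alone. Hoxc10, Hoxd3, Hoxd10 and Hoxd11 passed although both arrays of at least 1 nicotine group lay under it.

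The arrays differed in genes of other organs. Of 12 stomach genes, 2 or 3 lay above 5.74 (the 60th percentile among probe sets) in every nicotine array, against 10 in both saline arrays. Palate markers were present in all arrays, with 6 to 8 of 11 above that level. Tbx22, a palate gene, lay between 4.17 and 4.46, and Pax9, another, reached no more than 4.98. Of 15 face and jaw patterning genes, 1 to 4 exceeded the level. The 3′ to 5′ signal ratio of the actin control probe sets, a gauge of RNA integrity, was 0.954 to 1.39 in the nicotine arrays and 1.65 to 1.74 in the saline arrays. The part of these differences in the results below was not tested. In such bulk RNA, fewer cells of a type and less RNA per cell cannot be told apart.

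The promoters of 4 genes are shown here because their genes carry the pattern that follows. Hoxa3, Hoxa5 and Hoxa11 share cluster a on chromosome 6, and in the arrays at 3.0 and 4.5 mg/kg/day the first pair stood above saline and Hoxa11 below it. Hoxd10, on chromosome 2, had the largest fall of any member that passed the test. Each sequence is the 250 bases before the gene's start in RefSeq, build GRCm38.p6, written 5′ to 3′ on the gene's strand. Hoxa3 lies at chr6:52213068-52213317 (minus strand), Hoxa5 at chr6:52204588-52204837 (minus strand), Hoxa11 at chr6:52245811-52246060 (minus strand) and Hoxd10 at chr2:74691641-74691890 (plus strand). Capitals mark the reverse complement of AGGTCA, the core site bound by retinoic acid receptors.
Hoxa3: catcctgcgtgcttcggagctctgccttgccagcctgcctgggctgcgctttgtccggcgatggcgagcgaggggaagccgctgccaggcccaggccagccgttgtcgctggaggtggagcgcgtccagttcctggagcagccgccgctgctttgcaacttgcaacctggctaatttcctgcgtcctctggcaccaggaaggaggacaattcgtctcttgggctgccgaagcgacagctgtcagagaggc
Hoxa5: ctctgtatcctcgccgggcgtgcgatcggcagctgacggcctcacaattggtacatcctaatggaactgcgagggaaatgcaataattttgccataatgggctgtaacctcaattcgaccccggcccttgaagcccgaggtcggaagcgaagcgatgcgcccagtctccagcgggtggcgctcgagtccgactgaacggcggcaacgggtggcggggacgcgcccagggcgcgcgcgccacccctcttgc
Hoxa11: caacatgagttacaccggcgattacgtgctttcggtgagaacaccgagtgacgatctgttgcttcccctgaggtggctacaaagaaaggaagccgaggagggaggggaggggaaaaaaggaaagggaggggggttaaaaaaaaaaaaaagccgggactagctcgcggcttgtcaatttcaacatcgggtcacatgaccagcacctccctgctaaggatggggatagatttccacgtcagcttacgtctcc
Hoxd10: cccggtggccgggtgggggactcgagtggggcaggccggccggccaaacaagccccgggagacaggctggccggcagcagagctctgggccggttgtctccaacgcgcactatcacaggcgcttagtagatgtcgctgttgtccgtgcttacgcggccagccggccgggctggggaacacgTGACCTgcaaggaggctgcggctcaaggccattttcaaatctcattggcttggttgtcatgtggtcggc
A set of 3 motifs were searched on both strands in the 21 windows available for 19 Hox genes and in all 32851 promoters of the same length. AGGTCA was found in 5 Hox windows (23.8%), against 14% of all promoters. They belonged to Hoxd3, Hoxb4, Hoxc4, Hoxd8 and Hoxd10. TGATTNAT, a site of Hox with Pbx, was found in 2 windows (9.52%), those of Hoxa2 and Hoxd11, against 2.82% of all promoters. TTTATNG, a Cdx site, was found in 0 of the 21 windows, against 9.81% of all promoters. The match in Hoxd10 is the single one in the printed windows and overlaps no other motif. GC content was 64.8% for Hoxa3, 63.6% for Hoxa5, 52% for Hoxa11 and 65.6% for Hoxd10. These matches describe letters in the windows and name no bound site.

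When the mean of the 3 nicotine doses was set against saline, 1 Hox gene rose and 3 fell. Hoxa4 rose, and Hoxb3, Hoxb6 and Hoxd10 fell. These were 4 of the 23 tested members, or 17.4%, while 10.2% of all 13586 genes passed the same test (limma with Benjamini-Hochberg adjustment over all genes, adjusted p under 0.05). Higher calls made up 4.35% of the tested members and 4.75% of all genes. Lower calls made up 13% of the tested members and 5.40% of all genes. The median log2 change was -0.30 over the tested members and 0.07 over all genes. At 1.5 mg/kg/day, 4 members (17.4%) had an unadjusted p under 0.05, against 21.1% of all genes. There limma called 0 of the 23 members and 2.48% of all genes. At 3.0 mg/kg/day it called 2 members, Hoxa3 and Hoxa4, both higher, and 3.73% of all genes. At 4.5 mg/kg/day it called Hoxa4 as higher and Hoxb3 as lower, and 6.90% of all genes (2.91% higher and 3.99% lower). The slope of level on dose gave 0 calls among the 23 members and called 0.802% of all genes. Its unadjusted p was under 0.05 for 14 members (60.9%), against 27.2% of all genes. All these comparisons share the same 2 saline arrays. Leaving out either array at 3.0 mg/kg/day left 0 Hox calls in every comparison, and the number of arrays limits each call below.

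**Figure D1:**
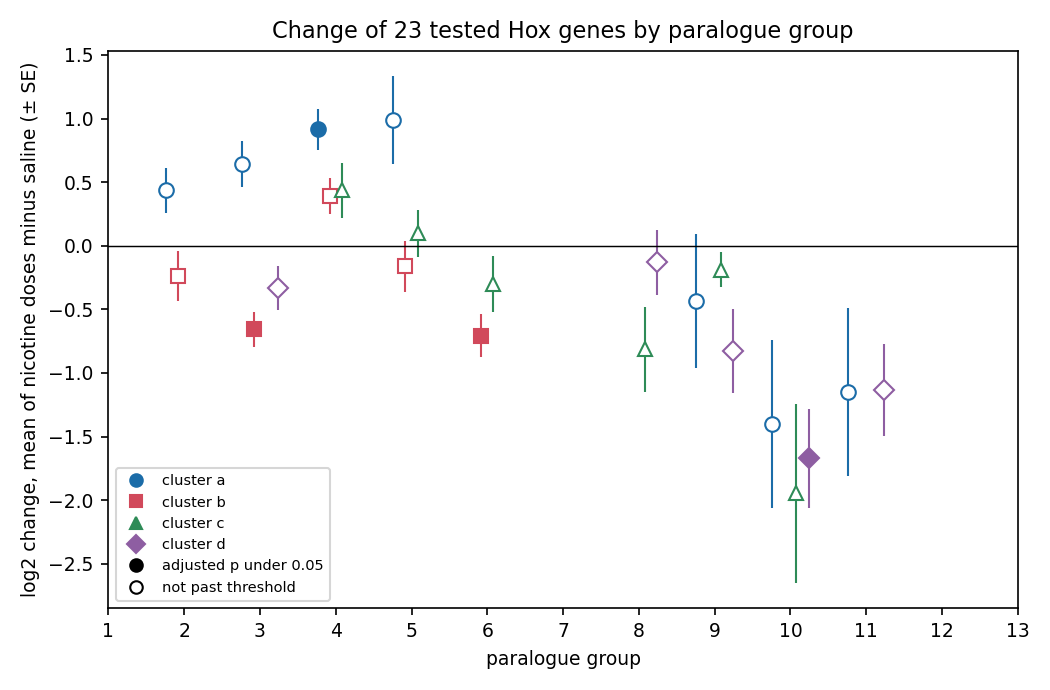
Log2 change of each of the 23 tested Hox genes (mean of the 3 nicotine doses minus saline, y axis, bars ± SE) by paralogue group (x axis) and cluster (marker shape and colour); filled points passed the test. Points of groups 2, 3 and 5 lie on both sides of 0, and those of group 4 all above it. Those of groups 6 and 8 to 11 all lie below 0.

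The anterior groups 1 to 3 gave 1 fall and 1 rise. Hoxb3, a hindbrain and neck gene, had levels of 7.21 and 7.38 with saline, 6.50 and 6.61 at 1.5, 6.94 and 6.76 at 3.0, and 6.46 and 6.53 at 4.5 mg/kg/day. All 6 nicotine arrays were below both saline arrays, as in 12.6% of all genes. The mean of the doses fell by 0.66 ± 0.14 (SE) on the log2 scale (adjusted p = 0.0341), and 4.5 mg/kg/day gave -0.80 ± 0.17 (adjusted p = 0.0426). The first call was lost without any single array except replicate 2 at 1.5 mg/kg/day (adjusted p 0.0511 to 0.125). The second was lost without any except saline replicate 1 (adjusted p 0.0523 to 0.151). Both were also lost with array weights (0.0874 and 0.0930) and with the probe sets averaged, where the changes were -0.38 (0.176) and -0.48 (0.176). A second Hoxb3 probe set gave -0.10.

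Hoxa3, needed in mice for the thymus, parathyroid and throat cartilages, moved the other way. Its levels were 5.93 and 6.14 with saline, 5.65 and 6.04 at 1.5, 7.21 and 7.19 at 3.0, and 7.18 and 6.79 at 4.5 mg/kg/day. The 4 arrays at the higher doses exceeded both saline arrays, and the 1.5 mg/kg/day arrays overlapped them. At 3.0 mg/kg/day Hoxa3 rose by 1.16 ± 0.22 (adjusted p = 0.0399). At 4.5 mg/kg/day it gave 0.95 ± 0.22 (adjusted p = 0.0508), and over all doses 0.64 ± 0.18 (adjusted p = 0.0657). The call at 3.0 was lost without any one saline, 3.0 or 4.5 mg/kg/day array (adjusted p 0.0573 to 0.260). It was also lost with a constant of 1 (0.0533), on the values as deposited (0.0616) and with the Hoxa3 probe sets averaged, where the change was 0.51 (0.0825). Its 3 further probe sets gave 0.24, 0.22 and 0.03 over the mean of the doses. The value at 4.5 passed without either array at 1.5 mg/kg/day (adjusted p = 0.0482).

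Hoxa2, which sets the identity of the second pharyngeal arch, had a lowest level of 4.91 in saline and a highest of 5.82 at 3.0 mg/kg/day. Its change over the doses was 0.43 ± 0.18 (adjusted p = 0.158). Hoxb2, a hindbrain gene, stood at 6.76 and 7.16 with saline, 6.10 and 6.62 at 1.5, 6.97 and 7.09 at 3.0, and 6.82 and 6.72 at 4.5 mg/kg/day. Its groups overlapped, with a change of -0.24 ± 0.19 (adjusted p = 0.438). Hoxd3 lay between 4.67 and 5.23 in all arrays. Hoxb1 and Hoxd1 were below the filter and were not tested.

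Groups 4 to 8, which mark the neck and chest region, held members that went in both directions. Hoxa4 gave the smallest p of the family. Its levels were 5.18 and 5.0 with saline, 5.10 and 5.16 at 1.5, 6.78 and 6.77 at 3.0, and 6.32 and 5.90 at 4.5 mg/kg/day. The arrays at 1.5 lay within the saline pair, and the 4 arrays at the higher doses lay above it. The mean of the doses rose by 0.92 ± 0.16 (adjusted p = 0.0203), 3.0 mg/kg/day gave 1.68 ± 0.20 (adjusted p = 0.00813) and 4.5 gave 1.02 ± 0.20 (adjusted p = 0.0323). As deposited, its intensities were 92.30 and 90.50 at 3.0 mg/kg/day and 23.09 and 15.78 in saline. A second Hoxa4 probe set gave 0.74 over the mean of the doses. The first call was lost without saline replicate 2 or either 3.0 mg/kg/day array (adjusted p 0.0737 to 0.0811). The call at 3.0 was lost without either of its own arrays (0.0900 and 0.108). The call at 4.5 was lost without saline replicate 2 or any array at 3.0 or 4.5 (0.0603 to 0.123), on the values as deposited (0.0533) and with array weights (0.0611). It passed in 8 of 17 alternatives.

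Hoxa5, which is needed in mice for the lung and airway, had 7.16 and 6.63 with saline, 6.68 and 7.98 at 1.5, 8.44 and 8.05 at 3.0, and 8.00 and 8.14 at 4.5 mg/kg/day. Both arrays at 3.0 and at 4.5 exceeded saline, while those at 1.5 were split, 1 within and 1 above the saline pair. The change of 0.99 ± 0.35 did not pass (adjusted p = 0.111). Without replicate 1 at 1.5 mg/kg/day it was 1.20 (adjusted p = 0.0279). A second Hoxa5 probe set gave 0.59.

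Hoxb4 was the only tested member whose 6 nicotine arrays all exceeded both saline arrays, with 6.09 to 6.61 against 5.99 and 6.0. Such separation upwards was seen in 16.8% of all genes, and Hoxb4 did not pass the test (0.39 ± 0.14, adjusted p = 0.118). Hoxc4 had 6.15 and 5.50 with saline, 5.66 and 6.14 at 1.5, 6.40 and 6.37 at 3.0, and 6.47 and 6.51 at 4.5 mg/kg/day. Its higher doses lay above saline and its lowest dose overlapped saline (0.43 ± 0.22, adjusted p = 0.225). Hoxb5 and Hoxc5 ranged from 5.05 to 5.74 and from 5.60 to 6.04 across the arrays.

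Hoxb6, which like its neighbours patterns the chest, had 5.91 and 6.29 with saline, 5.39 and 5.39 at 1.5, 5.70 and 5.35 at 3.0, and 5.30 and 5.23 at 4.5 mg/kg/day. No nicotine array reached the saline pair, as in 12.6% of all genes. It fell by 0.71 ± 0.17 over the doses (adjusted p = 0.0458). At 4.5 mg/kg/day alone the change was -0.83 ± 0.21 (adjusted p = 0.0588). The call over the doses was lost without any single array except saline replicate 1 (adjusted p 0.0663 to 0.180), and with array weights (0.119). The value at 4.5 passed without saline replicate 1 (0.0421).

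Hoxc6 had 7.71 and 6.94 with saline, 7.43 and 7.35 at 1.5, 7.03 and 6.81 at 3.0, and 6.86 and 6.65 at 4.5 mg/kg/day. Its groups overlapped (-0.30 ± 0.22, adjusted p = 0.385), and its sign turned with the probe set rule and without saline replicate 1. Hoxc8, a gene of the trunk, had 7.77 and 6.52 with saline, 7.19 and 7.32 at 1.5, 6.23 and 5.62 at 3.0, and 5.83 and 5.80 at 4.5 mg/kg/day. Its higher doses lay below both saline arrays and its lowest dose lay between them. The change of -0.81 ± 0.33 did not pass (adjusted p = 0.153). Without saline replicate 1 it was -0.19 (adjusted p = 0.681) and without saline replicate 2 it was -1.44 (adjusted p = 0.0338), so its size rested on which saline array was kept. Hoxd8 lay between 7.42 and 8.31 in all arrays. Hoxa7 and Hoxb7 were below the filter.

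**Figure D2:**
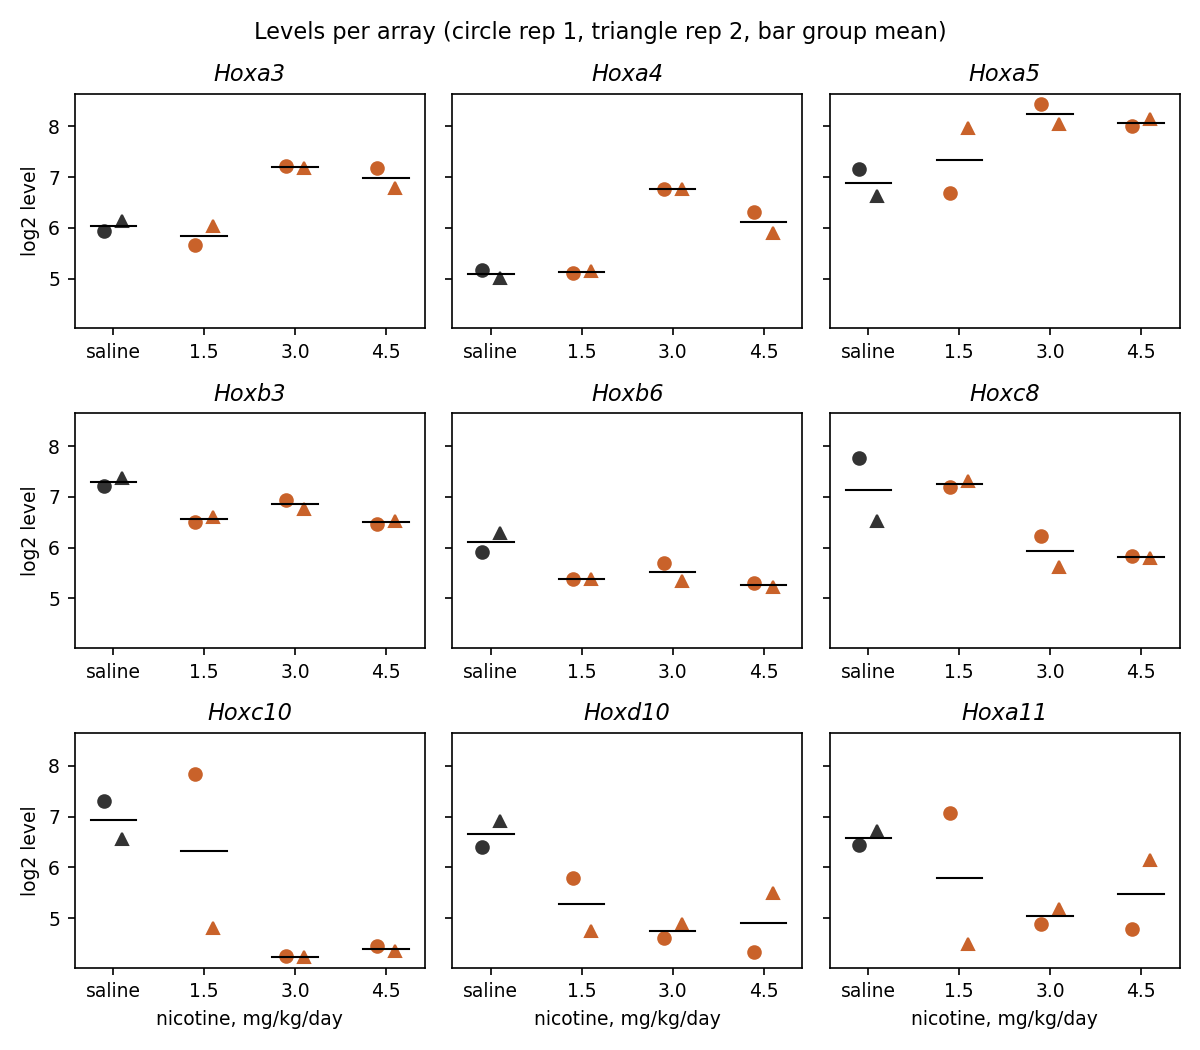
Log2 level (y axis) of Hox genes against nicotine dose in mg/kg/day, saline at the left (x axis); circles are replicate 1, triangles replicate 2 and bars group means. Hoxa3 and Hoxa4 stand higher at 3.0 and 4.5 mg/kg/day, and Hoxd10 stands below saline at every dose.

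Most members of the posterior groups 9 to 13 had lower levels with nicotine. Over the mean of the doses, 11 of the 14 members were lower and 3 higher, whether or not they passed the filter, with a median change of -0.60. The same median was -0.24 for groups 1 to 3 (3 higher, 4 lower) and 0.01 for groups 4 to 8 (6 higher, 6 lower). At 3.0 mg/kg/day 13 of the 14 posterior members were lower, at 4.5 there were 11 and at 1.5 there were 9. The 8 tested posterior members had a median of -1.14 over the doses, and -1.70 to -0.52 in 17 alternatives. Their median at 1.5 mg/kg/day was -0.74. It was -0.04 without replicate 2 at that dose (4 of 8 higher) and -1.63 without replicate 1 (0 of 8 higher). Without the 2 arrays highest in liver genes it was 0.05 (5 of 8 higher). The signs at 1.5 thus rested on which array was kept. The signs were not tested as a set, and 1 posterior member, Hoxd10, passed the test.

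Hoxd10 patterns the lower spine and the hind limb. It had 6.39 and 6.90 with saline, 5.80 and 4.75 at 1.5, 4.61 and 4.88 at 3.0, and 4.33 and 5.50 at 4.5 mg/kg/day. Every nicotine array was below both saline arrays, as in 12.6% of all genes. Over the doses it fell by 1.67 ± 0.39 (adjusted p = 0.0434), and 3.0 mg/kg/day alone gave -1.90 ± 0.48 (adjusted p = 0.0781). The deposited intensities were 3.92 to 38.92 with nicotine and 76.83 and 109.03 with saline, so that some nicotine arrays lay near the bottom of the scale. The call was lost without either saline array, replicate 2 at 1.5, either array at 3.0 or replicate 1 at 4.5 mg/kg/day (adjusted p 0.0535 to 0.170). It was also lost with array weights (0.0804) and with an added constant of 1, where the change was -2.53 (0.0758).

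Hoxc10, also a gene of the lower spine and hind limb, showed the widest range of any member. Its levels were 7.30 and 6.56 with saline, 7.84 and 4.80 at 1.5, 4.25 and 4.23 at 3.0, and 4.44 and 4.35 at 4.5 mg/kg/day. The arrays at both higher doses were close to background, and at 1.5 replicate 1 was above saline while replicate 2 was far below it. The change over the doses was -1.95 ± 0.70 (adjusted p = 0.118), and at 3.0 mg/kg/day -2.69 ± 0.86 (adjusted p = 0.123). With an added constant of 1 in place of 16 these were -3.31 and -4.77 (adjusted p 0.0722 and 0.0804), so the size depends on the constant. Intensities were 2.88 to 5.58 at the higher doses and 154.07 and 82.63 in saline. Leaving out replicate 1 at 1.5 mg/kg/day gave -2.45 over the doses (adjusted p = 0.00430), and leaving out replicate 2 gave -1.44 (adjusted p = 0.0219). Without either of them, the change at 3.0 mg/kg/day had an adjusted p of 0.00796.

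Their neighbours in groups 9 to 11 were widely spread within groups. Hoxa10, known for the uterus and lower spine, had 7.21 and 7.69 with saline, 7.28 and 4.88 at 1.5, 6.12 and 5.93 at 3.0, and 5.24 and 6.84 at 4.5 mg/kg/day. Its change was -1.40 ± 0.66 (adjusted p = 0.199), and its second probe set gave 0.28. Hoxa11, which acts in the kidney, limb and reproductive tract of mice, had 6.44 and 6.71 with saline, 7.07 and 4.50 at 1.5, 4.88 and 5.19 at 3.0, and 4.79 and 6.14 at 4.5 mg/kg/day. Its change was -1.15 ± 0.66 (adjusted p = 0.278). In both genes the 4 arrays at the higher doses lay below saline, and the 1.5 mg/kg/day pair was split as in Hoxc10.

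Hoxd11, a partner of Hoxa11 in kidney and forearm development, had 5.40 and 6.87 with saline, 5.09 and 5.47 at 1.5, 4.84 and 4.77 at 3.0, and 4.97 and 4.88 at 4.5 mg/kg/day. Its change was -1.13 ± 0.36 (adjusted p = 0.0891), and both saline arrays moved it. It was -1.87 without saline replicate 1 (adjusted p = 0.00620) and -0.40 without saline replicate 2 (adjusted p = 0.292). Hoxd9 had 6.91 and 7.72 with saline, 6.89 and 6.38 at 1.5, 6.34 and 6.28 at 3.0, and 6.02 and 7.02 at 4.5 mg/kg/day. Its highest nicotine array overlapped saline (-0.83 ± 0.33, adjusted p = 0.145).

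Hoxa9 had 7.68 and 7.62 with saline, 8.33 and 6.28 at 1.5, 7.21 and 6.94 at 3.0, and 6.73 and 7.76 at 4.5 mg/kg/day. Its groups overlapped (-0.44 ± 0.52, adjusted p = 0.605). Hoxc9 ranged from 4.80 to 5.30. Of the 6 posterior members below the filter, Hoxb9 was 4.47 to 4.96 with nicotine and 5.32 and 5.61 with saline, without overlap. Hoxa13, Hoxb13, Hoxc13, Hoxd12 and Hoxd13, which act at the tail end, limb tips and genital tract, stayed between 4.13 and 5.67. The highest of these values was Hoxb13 in replicate 1 at 1.5 mg/kg/day.

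Downward separation of all 6 nicotine arrays from both saline arrays was seen for Hoxb3, Hoxb6 and Hoxd10. These were 13% of the 23 tested members, close to the 12.6% of all genes. It was also seen for Hoxb1 and Hoxb9, which were not tested. The 4 arrays at 3.0 and 4.5 mg/kg/day, a choice made after the values were seen, lay below saline for 9 of 23 tested members (39.1%), against 18.8% of all genes. They lay above saline for 6 (26.1%), against 25.2% of all genes. Those above were Hoxa2, Hoxa3, Hoxa4, Hoxa5, Hoxb4 and Hoxc4, of groups 2 to 5. Those below were Hoxb3, Hoxb6, Hoxc8, Hoxc9, Hoxa10, Hoxc10, Hoxd10, Hoxa11 and Hoxd11. Of these, Hoxc10, Hoxd10 and Hoxd11 had both arrays of at least 1 nicotine group under the level filter. They entered the 39.1% through their higher arrays. Of all 14 posterior members, filtered or not, 7 lay below and 0 above.

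**Figure D3:**
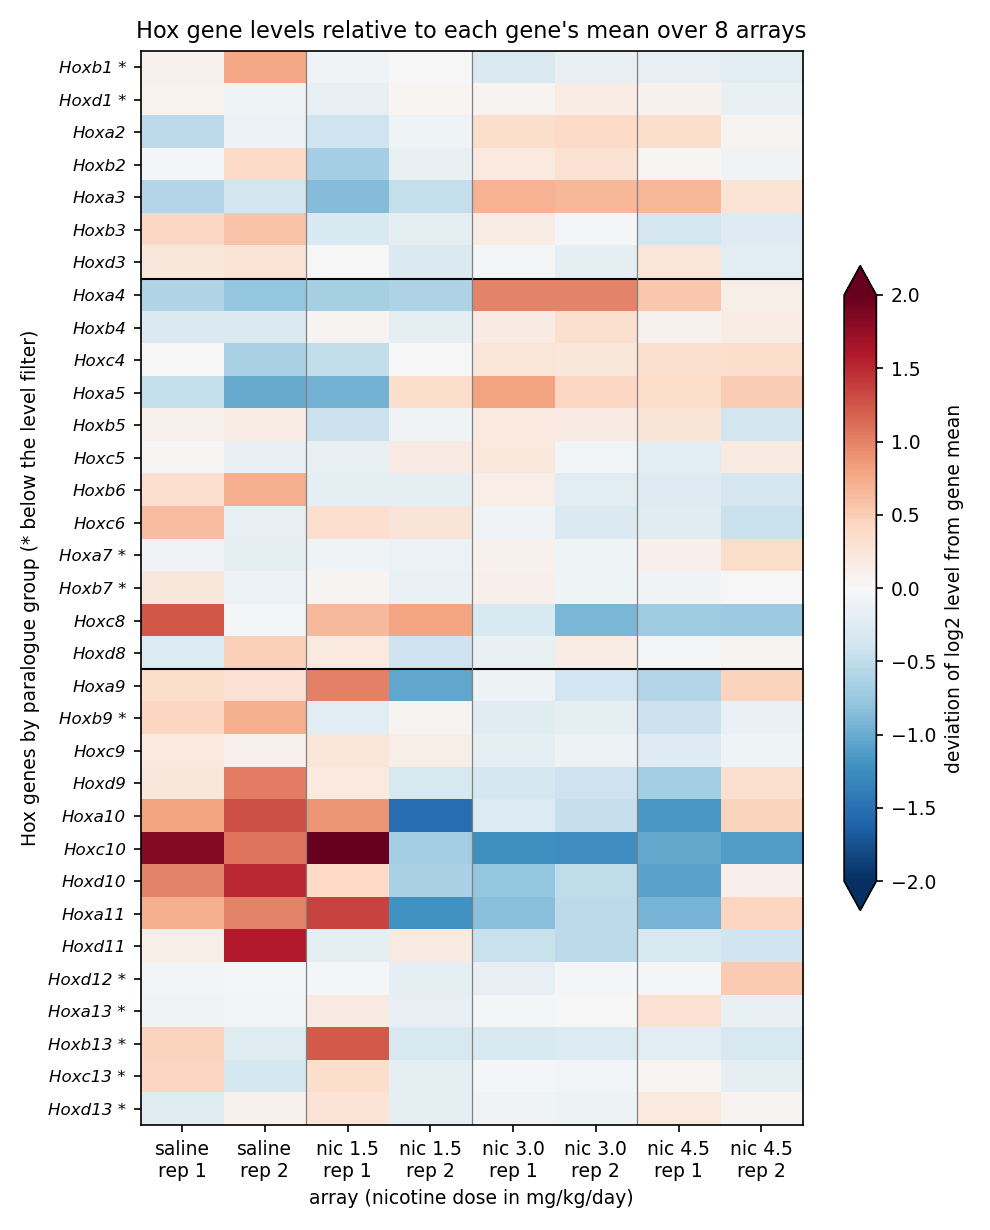
Deviation of each Hox gene's log2 level from its own mean over the 8 arrays (colour, clipped at 2 either way) with 1 row per gene by paralogue group and 1 column per array; an asterisk marks genes below the level filter. For Hoxa10, Hoxa11, Hoxc10 and Hoxd10 the saline arrays and replicate 1 at 1.5 mg/kg/day stand above the other 5 arrays.

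Array by array, the median deviation of all 14 posterior members from their own means, filtered or not, was 0.39 and 0.50 in saline, 0.31 and -0.25 at 1.5, -0.26 and -0.33 at 3.0, and -0.37 and -0.02 at 4.5 mg/kg/day. The lowest dose thus had 1 array near saline and 1 near the higher doses. The same median for groups 4 to 8 stayed between -0.16 and 0.15, and for groups 1 to 3 between -0.30 and 0.27.

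Marker genes of organs along the trunk also differed between these arrays. Of 10 intestine genes, 1 to 7 exceeded the 60th percentile in the nicotine arrays, against 9 and 10 in the saline arrays. Their summed intensity was 9250 to 17275 in saline, 483 to 875 at 1.5, 198 to 233 at 3.0 and 197 to 200.3 at 4.5 mg/kg/day. Kidney genes (12 measured) summed to 143 to 206 in the nicotine arrays, against 1455 and 3991 in saline. Of these, 4 exceeded the 60th percentile in saline replicate 1, 10 in saline replicate 2 and 0 to 2 in the nicotine arrays. In saline replicate 1 Cubn stood at 10.16, while Umod, Slc12a1 and Aqp2 lay at 5.24, 5.49 and 5.01. In summed intensity, every nicotine array was below both saline arrays in both lists. Fabp2, a defining intestine gene, was at 4.78 to 4.95 in the arrays at 3.0 and 4.5 mg/kg/day, near background. Replicate 1 at 1.5 mg/kg/day, whose posterior Hox median was near that of saline, had a kidney sum of at most 206 and an intestine median of 6.21. Some other genes set that array beside saline. Actg2, a smooth muscle actin, stood at 10.83 in that array and 11.89 and 10.73 in saline, and at 7.30 to 8.76 in the other 5. Myh11, smooth muscle myosin, stood at 9.43 in that array and 10.22 and 8.86 in saline, and at 7.23 to 7.75 in the others. Both genes were thus high in the same 3 arrays as Hoxa10, Hoxa11 and Hoxc10. Des and Synpo2, of the same smooth muscle list, went the other way and were lower in saline than in every nicotine array. Des was at 10.16 and 9.81 in saline and 10.53 to 10.95 with nicotine. Synpo2 was at 9.45 and 8.23 in saline and 9.72 to 10.51 with nicotine. Smtn was at 8.27 and 7.93 in saline and 9.01 in replicate 1 at 1.5 mg/kg/day, with 7.96 to 9.02 in the other 5. Cnn1 was at 7.90 in that array, below its 10.05 and 8.16 in saline, and at 5.48 to 6.33 in the other 5. Acta2 and Lmod1 were highest in the same 3 arrays as Actg2, but narrowly. The lowest of the 3 was 11.43 for Acta2 and 5.36 for Lmod1, and the next array 11.40 and 5.30. Muc2, an intestinal mucin, was at 8.33 in that array, 9.01 in saline replicate 1 and 5.66 in saline replicate 2. It was at 4.28 to 4.96 in the other 5. Every other gene of the intestine list was lower in that array than in both saline arrays. Lct, for example, was at 4.95 against 10.04 and 8.51. The whole list of 8 smooth muscle genes had medians of 8.55 to 10.1 in saline, 8.32 to 9.68 at 1.5 and 7.70 to 8.80 at the higher doses, with 6 to 8 members above the 60th percentile in every array. The same array also stood apart in cartilage genes (9 measured, sum 9159, at most 716 elsewhere) and epidermis genes (6 measured, sum 17366, at most 2723 elsewhere).

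Lung and brown fat genes had higher sums in the arrays at 3.0 and 4.5 mg/kg/day than in saline. The 9 lung genes summed to 211 and 496 in saline, 128 and 10691 at 1.5, 3784 and 12822 at 3.0, and 1277 and 1482 at 4.5 mg/kg/day, given as the lowest and highest array of each group. They exceeded the 60th percentile for 1 or 2 genes in saline, 0 to 8 at 1.5, 7 or 8 at 3.0 and 6 at 4.5 mg/kg/day. The 2 arrays at 1.5 mg/kg/day were split in these genes as in Hoxa5, with replicate 2 high in both. Brown fat genes (9) summed to 700.2 to 1162 in saline, 1174 to 3463 at 1.5, 12018.5 to 14058 at 3.0 and 3655 to 12529 at 4.5 mg/kg/day. Liver genes (12) were high in both saline arrays and in 1 array at 1.5 mg/kg/day, with summed intensity of 107 to 142 at 3.0 and 4.5 mg/kg/day and 13809 to 36026 in saline. The part of these lists in the Hox values was not tested.

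**Figure D4:**
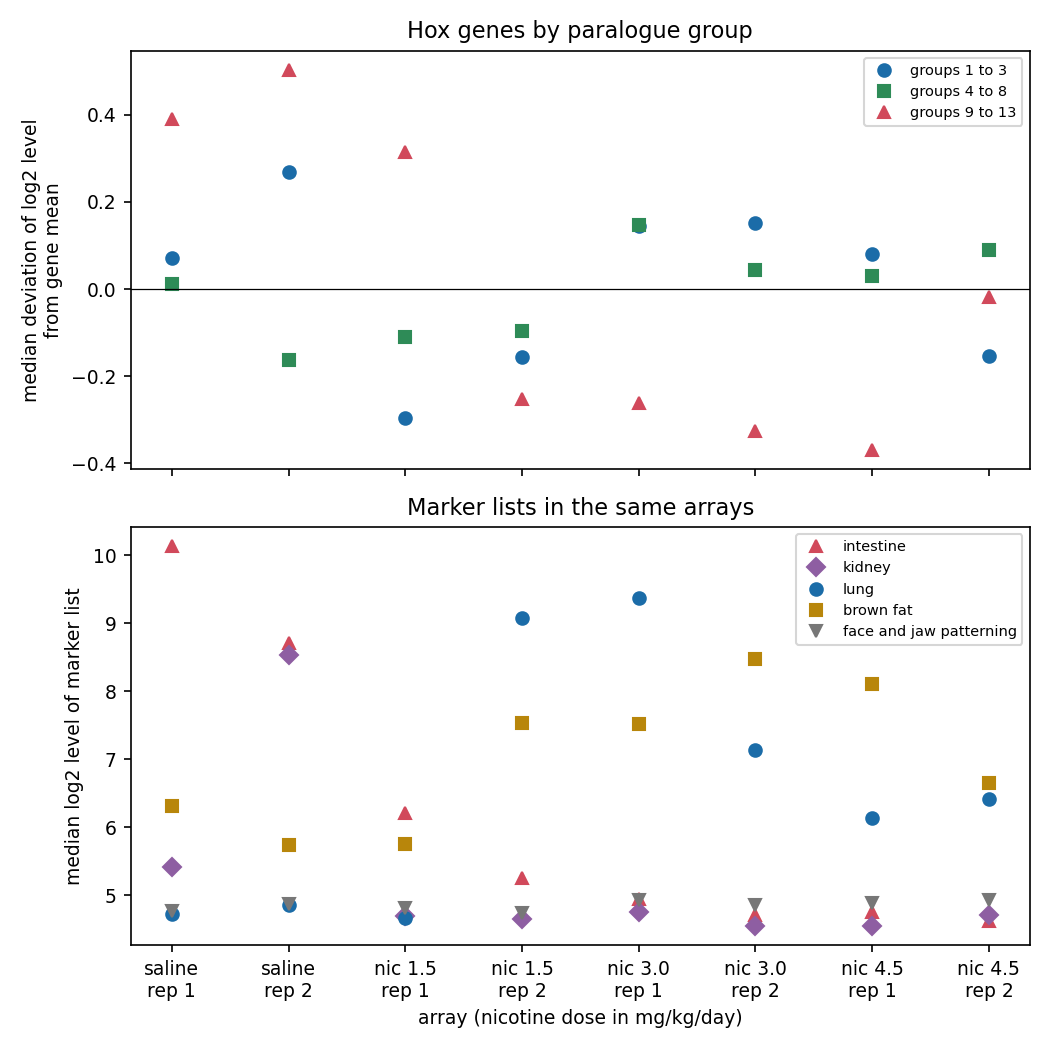
Upper panel, median deviation of log2 level from the gene mean for 3 sets of Hox paralogue groups (y axis) in each of the 8 arrays (x axis); lower panel, median log2 level of organ marker lists in the same arrays. The posterior Hox median was 0.39 and 0.50 in saline, where the intestine median was also highest.

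Genes whose pattern over the 8 arrays was most like Hoxc10 were listed by Pearson r among 5825 genes compared, as a description. The 10 closest had r of 0.96 to 0.98 and were Isl1, Lad1, Sdcbp2, Oit1, Atp12a, Ceacam1, Ppan, Lypd8, Pafah1b3 and Zg16. Isl1, a homeobox gene, had 7.40 and 6.19 with saline, 7.76 and 5.18 at 1.5, 4.61 and 4.73 at 3.0, and 4.87 and 5.17 at 4.5 mg/kg/day. It shared with Hoxc10 the high replicate 1 at 1.5 mg/kg/day. So did Lypd8 and Zg16, which are not in the intestine list above. Lypd8 stood at 8.91 in that array and at 10.28 and 8.87 in saline. Zg16 stood at 7.93 in that array and at 8.86 and 7.66 in saline. Both were at most 4.86 in the remaining arrays. All 10 genes were picked for such likeness. The 10 genes closest to the mean of groups 9 to 13 had r of 0.93 to 0.96 and were Elovl7, Teddm3, Aldh1a3, Erlin1, Scin, Foxd1, Gnai3, Fxyd3, Agr2 and AA467197. The points share 4 groups and the same libraries.

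Several genes that act on or with the Hox clusters were measured as well. Of 10 upstream inputs and end-of-cluster genes 3 were tested, and 1 was called (33.3%, against 10.2% of all genes). It was Cdx2, which opens the trunk part of the clusters and is also an intestine gene, and it fell. Its levels were 7.41 and 6.20 with saline, 5.07 and 5.25 at 1.5, 5.19 and 5.09 at 3.0, and 4.34 and 5.02 at 4.5 mg/kg/day, with no overlap. Its change was -1.81 ± 0.33 over the doses (adjusted p = 0.0239) and -2.12 ± 0.41 at 4.5 mg/kg/day (adjusted p = 0.0325). The first change was -1.20 without saline replicate 1 and -1.12 with probe sets averaged, and both passed. The second was -3.31 with a constant of 1 and -1.27 with probe sets averaged, and both passed. The first call was lost without either 3.0 mg/kg/day array or replicate 1 at 4.5 (adjusted p 0.0557 to 0.0742), and the second also without replicate 2 at 4.5 (0.0828 to 0.148).

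Of 9 Pbx, Meis and Prep cofactor genes 7 were tested, and none passed over the mean of the doses (limma, median change 0.19). Meis1 fell at 4.5 mg/kg/day by 0.97 ± 0.20 (adjusted p = 0.0389). Its levels there were 6.55 and 6.72, against 7.76 and 7.45 in saline. That call was lost without either saline array or any array at 3.0 or 4.5 mg/kg/day (0.0511 to 0.153), and the mean of its probe sets gave -0.43 (0.182).

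Of 19 genes of retinoic acid supply, breakdown and reception 14 were tested, and 2 (14.3%) rose over the doses, against 4.75% of all genes, with a list median of 0.03. Rxrg, a retinoid X receptor, had 5.93 and 5.61 with saline, 6.63 and 6.83 at 1.5, 7.35 and 7.62 at 3.0, and 7.50 and 6.79 at 4.5 mg/kg/day, without overlap. It rose by 1.35 ± 0.22 (adjusted p = 0.0177). Rxrb, its relative, rose by 0.62 ± 0.13 (adjusted p = 0.0346). The Rxrg call was lost without saline replicate 2 or either 3.0 mg/kg/day array (0.0543 to 0.0773), and the Rxrb call without any single array except replicate 1 at 1.5 mg/kg/day (0.0553 to 0.111).

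Each chromatin list had 1 member called over the mean of the doses, 6.67% of 15 Polycomb and 10% of 10 Trithorax-type genes tested, against 10.2% of all genes. In the Polycomb list, Suz12, a subunit of the complex that methylates histone H3, fell. It had 8.43 and 8.45 with saline, 7.76 and 7.50 at 1.5, 7.75 and 7.77 at 3.0, and 7.71 and 7.65 at 4.5 mg/kg/day. All 6 nicotine arrays were below saline, and the change was -0.75 ± 0.14 (adjusted p = 0.0232). It was lost without either saline array, either 3.0 array or replicate 1 at 4.5 mg/kg/day (0.0507 to 0.0865). In the other list, Kmt2a, a histone methyltransferase that keeps Hox genes active, rose by 0.59 ± 0.14 (adjusted p = 0.0480), and was lost without any single array (0.0568 to 0.161). The list medians were -0.01 for Polycomb and 0.00 for Trithorax.

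Noncoding transcripts from the clusters were also on the arrays. Hoxb5os had 6.55 and 8.19 with saline, 5.73 and 5.92 at 1.5, 5.95 and 6.22 at 3.0, and 6.29 and 5.97 at 4.5 mg/kg/day. All nicotine arrays were below saline, but the change of -1.36 ± 0.40 did not pass (adjusted p = 0.0733), and the saline arrays themselves were far apart. It was -2.18 without saline replicate 1 (adjusted p = 0.00472) and -0.53 without saline replicate 2 (adjusted p = 0.201). Hoxd3os1 gave 0.14 ± 0.21 (adjusted p = 0.683). Hoxa11os, opposite Hoxa11, was below the filter, with a highest level of 5.64 in replicate 1 at 1.5 mg/kg/day. A probe set that names Hoxb7 and Hoxb8 together was not counted for either gene, and had 6.21 and 6.10 with saline, 5.96 and 6.10 at 1.5, 5.35 and 4.91 at 3.0, and 5.04 and 4.45 at 4.5 mg/kg/day. Of 9 members with several probe sets above the filter, 3 (Hoxa9, Hoxa10 and Hoxc6) had sets that differed in direction.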

How the data were processed

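RNA from 8 samples labelled as palate was measured on Affymetrix arrays. The deposited unit is linear intensity for 45101 probe sets. The authors' summarization and scaling are not given in the sources used for this work. Each value was converted to log2(intensity + 16), in which the constant understates changes near background. Array medians differed by 0.17 log2, and the arrays were quantile normalized. Probe sets naming 1 gene (34945; 932 named several, 9160 none, 64 were controls) were kept, and each gene was represented by its brightest one. Genes under the 40th percentile were left out, which kept 13586 genes (74.7%). A model of group means was fitted to the 8 arrays together in limma 3.58.1 in R 4.3.3 (lmFit and eBayes, 4 residual and 6.85 total degrees of freedom), and the code was tested on simulated data. Tests were two-sided, with Benjamini-Hochberg adjustment over all genes tested. The members, the lists and the rule for named genes (a range of at least 1 log2 unit and 1 array above the 60th percentile, or a call) were chosen with earlier results of these data known. Alternatives changed the constant, normalization, filter, probe set rule, weights, block and arrays used. Precision is limited by having 2 arrays per group.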

Additional observations from a re-analysis of the deposited data

How the results depend on the processing

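Every Hox call kept its direction under all alternatives run. The count of Hox genes called was 4 for the mean of the doses, 2 at 3.0 and 2 at 4.5 mg/kg/day. For the mean of the doses it was 2 with the filter at the 60th percentile, 1 with array weights (Hoxa4, so that Hoxb3, Hoxb6 and Hoxd10 were lost) and 2 without the 2 arrays highest in liver genes. At 3.0 mg/kg/day it was 1 with an added constant of 1, as deposited or with probe sets averaged, and 4 without the liver-high arrays. Hoxa3 was the call lost in those 3 settings. At 4.5 it was 1 with a constant of 1 and 0 with array weights.

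Leaving out 1 array at a time gave 0 to 4 Hox calls for the mean of the doses, 0 to 1 at 1.5, 0 to 4 at 3.0, 0 to 4 at 4.5 mg/kg/day and 0 to 1 for the slope. A group left with 1 array is assumed to vary like the others. Over all genes these ranges were 349 to 1542, 96 to 962, 50 to 1046, 152 to 1420 and 0 to 808, against 1380, 337, 507, 938 and 109 with all arrays.

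Correlations of same-numbered deviations ran from -0.22 to 0.33. With 2 arrays per group, these values cannot decide whether replicate numbers pair the samples. With the replicate block there was 1 Hox call for the mean of the doses (Hoxa4, with all 3 falls lost, adjusted p 0.0650 to 0.0801), 1 at 3.0 (Hoxa4, with Hoxa3 lost) and 0 at 4.5 mg/kg/day, and over all genes 849, 157 at 1.5, 278 at 3.0, 527 at 4.5 and 0 for the slope.

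Counts over all genes also moved. Array weights gave 621 for the mean of the doses, 131 at 1.5, 441 at 4.5 mg/kg/day and 1 for the slope. Without the liver-high arrays there were 681 at 1.5, 1043 at 3.0, 1431 at 4.5 and 0 for the slope. A constant of 1 gave 156 at 1.5 and 165 for the slope. The slope also gave 203 as deposited, 2 with arrays centred on medians, 1 with no filter, 242 with the stricter filter and 1 with probe sets averaged. Hoxc6 turned to 0.068 with probe sets averaged and to 0.082 without saline replicate 1, and lay at -0.68 without saline replicate 2. The cofactor, retinoic acid and chromatin genes were put through the same alternatives, a choice made after seeing the data, and kept their direction. The cause of these shifts was not tested.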
